A study of Mus musculus with 6 samples.

Results

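Kit and the mast cell genes were followed in BAT of male mice that lacked miR-22 and of WT mice. The group holds 10 genes chosen by symbol: the receptor gene *Kit*, its ligand gene *Kitl*, and *Cpa3*, *Mcpt4*, *Cma1*, *Tpsb2*, *Tpsab1*, *Fcer1a*, *Ms4a2* and *Hdc*. Of the 23462 genes that had a matched array probe, 9 were among these 10, and every one of their probes is described. *Tpsab1* had no matched probe and has no value here. The 10 genes were put together with the higher *Kit* signal of the KO mice already known from these arrays, so their values between KO and WT mice are a description. Their calls in the fit across all genes are counted only beside the share of all genes.

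The study compared 3 WT mice with 3 mice carrying a constitutive deletion of miR-22, all male and 8 weeks old, and each mouse was hybridized to 1 array with a single dye. The deletion is present in every cell type of the animal, so the mast cells and the brown adipocytes of a KO mouse both lacked the microRNA. Values are scaled log2 signals, that is, log2 of a probe's array signal over the 75th percentile of the spots on the same array. A value of 0 is therefore the 75th percentile, and levels are compared between mice for 1 probe at a time. A probe was above background where the scanner software called it well above background, and some spots were marked by that software as outliers. All arrays sat on 1 slide in 2 rows, with WT mice 1 and 2 in one row and WT mouse 3 and all KO mice in the other. WT mouse 3 and KO mouse 1 had 17.1 and 15.1% of their spots marked, against 4.87 to 6.12% on the other arrays. KO mouse 1 also had 55.8% of its spots above background, against 62.3 to 66.5% on the other arrays, which bears on dim probes. The tissue label was borne out by its markers, since all 8 brown adipocyte genes listed, *Ucp1* and *Cidea* among them, were above background on 6 of 6 arrays. No probe read miR-22 itself. The host transcript *Mir22hg* was not lower in KO mice, at 2.12 ± 0.11 (SD, n = 3) against 1.37 ± 0.28 (SD, n = 3) in WT mice, and whether its probe lies within the deleted part is not given in the sources used here, so it checks nothing about the labels.

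KIT is a receptor tyrosine kinase on the cell surface, and its ligand, stem cell factor, is encoded by *Kitl*. Mast cells depend on this pair for their survival and keep KIT throughout life, whereas most other blood cells lose it as they mature. A mast cell is recognised by its granules, which hold chymases (*Cma1*, *Mcpt4*), tryptases (*Tpsb2*, *Tpsab1*), carboxypeptidase A3 (*Cpa3*) and histamine, which histidine decarboxylase (*Hdc*) makes. It is triggered through the high-affinity IgE receptor, whose alpha chain is encoded by *Fcer1a* and whose beta chain is encoded by *Ms4a2*. KIT is also found on melanocytes, blood progenitors and some innate lymphoid cells.

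The microRNA that the KO mice lacked is shown first, because it is the molecule named by the genotype. Both mature arms are given from RefSeq on GRCm38.p6 in the 5′ to 3′ direction, with the seed (bases 2 to 8) in capitals. The 3p arm lies at chr11:75463772-75463793 and the 5p arm at chr11:75463734-75463755, both on the plus strand and within the span of the host transcript *Mir22hg*.

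mmu-miR-22-3p: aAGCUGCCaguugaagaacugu

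mmu-miR-22-5p: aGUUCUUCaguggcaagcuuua

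The bases upstream of *Kit*, *Cpa3*, *Mcpt4*, *Cma1* and *Ms4a2* are shown next, since they are the part of these genes where a shared feature could be looked for. *Ms4a2* is included although its probe was dim and did not enter the fit. *Kitl*, whose KO readings were also higher but rest on marked spots, is not shown. Each sequence is the 250 bases before a transcription start in the promoter set of RefSeq (GRCm38.p6), in the direction of the gene. The most upstream start of that set was used, which is not always the end of the annotated gene. The windows of *Kit*, *Mcpt4* and *Cma1* lie wholly before their genes, while 28 bases of the *Cpa3* window and 71 of the *Ms4a2* window lie within the annotated span. A window was at hand for 8 of the 10 members. Capitals mark the letters GATAA on either strand (TTATC on the other), the core bound by GATA factors, which drive mast cell genes.

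Kit, chr5:75574737-75574986, plus strand: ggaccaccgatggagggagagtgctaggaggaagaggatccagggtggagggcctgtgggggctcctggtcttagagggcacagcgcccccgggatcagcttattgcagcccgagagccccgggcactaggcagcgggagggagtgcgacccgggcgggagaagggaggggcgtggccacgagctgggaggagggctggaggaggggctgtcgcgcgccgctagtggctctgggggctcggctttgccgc

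Cpa3, chr3:20242182-20242431, minus strand: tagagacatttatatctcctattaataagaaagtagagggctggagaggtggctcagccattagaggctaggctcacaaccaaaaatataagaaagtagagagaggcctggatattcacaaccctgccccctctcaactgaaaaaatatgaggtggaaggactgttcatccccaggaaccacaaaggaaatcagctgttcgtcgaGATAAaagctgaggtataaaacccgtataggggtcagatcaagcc

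Mcpt4, chr14:56062311-56062560, minus strand: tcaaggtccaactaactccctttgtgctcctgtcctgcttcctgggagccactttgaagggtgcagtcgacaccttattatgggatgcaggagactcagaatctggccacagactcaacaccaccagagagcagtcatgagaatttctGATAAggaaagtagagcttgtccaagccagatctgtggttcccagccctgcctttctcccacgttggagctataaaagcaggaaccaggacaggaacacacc

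Cma1, chr14:55944676-55944925, minus strand: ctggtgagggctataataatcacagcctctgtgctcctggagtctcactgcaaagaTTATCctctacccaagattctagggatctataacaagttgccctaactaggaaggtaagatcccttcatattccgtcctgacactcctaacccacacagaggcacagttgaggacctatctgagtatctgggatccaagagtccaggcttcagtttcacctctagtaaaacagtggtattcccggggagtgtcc

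Ms4a2, chr19:11623720-11623969, minus strand: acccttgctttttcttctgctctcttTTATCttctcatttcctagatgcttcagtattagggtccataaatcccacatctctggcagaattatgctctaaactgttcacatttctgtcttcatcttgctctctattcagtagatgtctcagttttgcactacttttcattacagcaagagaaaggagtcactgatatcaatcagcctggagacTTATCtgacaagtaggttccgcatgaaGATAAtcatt

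GATAA was present in 5 of the 8 windows of the members, in 10 of the 21 windows of the other mast cell genes and in 23% of the 27025 windows of all genes. *Cpa3*, *Mcpt4* and *Cma1* held 1 copy each and *Ms4a2* held 3, of which 2 lie within the span of the gene. *Fcer1a* held 1, with 3 bases of its window within the gene, and the windows of *Kit*, *Kitl* and *Hdc* held none. The window of *Hdc* lies wholly within the annotated gene (250 bases) and that of *Kitl* with 206 bases. The letters CACATG, searched on both strands, which the mast cell and melanocyte factor MITF can bind, were in 1 of the 8 windows, that of *Fcer1a*, against 12.2% of all windows. No copy of one motif overlapped the other. A match describes letters only and is not a measured binding site.

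The genes of the mast cell surface and granule fell into 2 patterns. *Kit*, *Mcpt4*, *Cpa3* and *Cma1* were higher in KO mice without overlap of the groups, by 1.98 to 3.21-fold. *Tpsb2* and *Hdc*, a tryptase and the histamine enzyme, overlapped between the groups. The chains of the IgE receptor were dim, with *Fcer1a* not above background on any array and *Ms4a2* above background in KO mice only. In whole tissue, more cells of a type and more RNA per cell cannot be told apart.

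*Kit* lies at chr5:75574987-75656722 (GRCm38.p6, plus strand) and was read by 1 probe that maps to its transcript. The position of the probes within their transcripts is not given in the sources used here. The scaled log2 signal of *Kit* was -3.57, -3.40 and -3.11 in WT and -1.68, -1.61 and -1.94 in KO mice. Every KO mouse was above every WT mouse, with a wide gap between WT mouse 3 and KO mouse 3. The difference was 1.62 ± 0.17 (SE, n = 3 per group), or 3.07-fold, and the spread within either group was 0.24 (SD) or less. Its probe was above background on 6 of 6 arrays and unmarked on all of them.

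The 2 chymases of connective tissue mast cells, *Mcpt4* (mouse mast cell protease 4) and *Cma1* (chymase 1), both lie on chromosome 14, at chr14:56059744-56062310 and chr14:55941451-55944675. The scaled log2 signal of *Mcpt4* was -1.99, -2.74 and -2.51 in WT and -0.24, -0.79 and -1.17 in KO mice. The groups did not overlap, and the difference was 1.68 ± 0.29 (SE, n = 3 per group). *Cma1* read -0.72, -0.94 and -0.92 in WT and 0.23, 0.23 and 0.02 in KO mice, where the first of the KO values came from a marked spot and was left out of the fit. With the remaining KO mice the difference was 0.99 ± 0.17 (SE, 3 WT and 2 KO mice), and with the marked spot it was 1.02 ± 0.14.

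*Cpa3*, the carboxypeptidase of the mast cell granule (chr3:20215616-20242209), read -1.77, -3.06 and -1.95 in WT and -0.59, -0.50 and -1.0 in KO mice. WT mouse 2 was lowest by a wide margin, and the SD of the WT mice was 0.70 against 0.27 in KO mice. The difference was 1.56 ± 0.35 (SE, n = 3 per group) and became 1.16 without WT mouse 2.

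The tryptase *Tpsb2* (chr17:25366308-25368096) was above background on 6 of 6 arrays and did not follow *Kit*. Its scaled log2 signal was -0.34, -0.27 and -0.57 in WT and -0.31, -0.42 and 0.15 in KO mice. Only KO mouse 3 lay above the WT mice. The difference was 0.20 ± 0.19 (SE, n = 3 per group), with a 95% interval of -0.25 to 0.65.

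*Hdc* (chr2:126593659-126624025) was read by 2 probes, each above background on 6 of 6 arrays. The brighter one read 0.38, 0.03 and 0.43 in WT and 0.66, 0.15 and 0.33 in KO mice, with the spots of WT mouse 3 and KO mouse 1 marked. Without the marked spots the difference was 0.03 ± 0.21 (SE, n = 2 per group), with a 95% interval of -0.52 to 0.58. The dimmer probe had no marked spot and read -1.49, -1.69 and -1.25 in WT and -1.05, -1.52 and -1.05 in KO mice. Both probes overlapped between the groups.

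The IgE receptor chains were at the edge of what the arrays could read. *Ms4a2*, the beta chain (chr19:11615517-11623790), had 1 probe that was above background in KO mice 2 and 3 and on no WT array. That probe read -7.64, -8.34 and -8.06 in WT and -5.43, -4.78 and -4.44 in KO mice. Against the lowest signal called above background on the WT arrays, the KO mean was 2.24-fold higher, from log2 means over 3 arrays a group. The reading of KO mouse 1, itself not above background, is in that mean, so the value is not a strict lower bound. The other probe of *Ms4a2* was not well above background on any array. *Fcer1a*, the alpha chain (chr1:173221269-173227232), was not well above background on any array either, with readings from -7.29 to -5.94 in WT mice and from -6.96 to -5.19 in KO mice that have no order.

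*Kitl*, the ligand made by stromal cells rather than by mast cells (chr10:100015615-100100416), was read by 3 probes above background on 6 of 6 arrays. Their spots were marked on 4, 4 and 3 of the 6 arrays, so that no probe had 2 unmarked values in each group and none entered the fit. With marked spots kept, the brightest probe read 1.45, 1.22 and 1.51 in WT and 1.87, 1.89 and 1.62 in KO mice. The second read 0.32, -0.64 and 0.14 in WT and 1.07, 1.5 and 0.59 in KO mice. The third read 1.03, 0.68 and 1.13 in WT and 1.21, 1.6 and 1.59 in KO mice. For each probe every KO reading lay above every WT reading. The means differed by 0.40, 1.11 and 0.52, so the probes disagreed on the size. These differences rest on spots that the scanner software set aside.

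**Figure D1:**
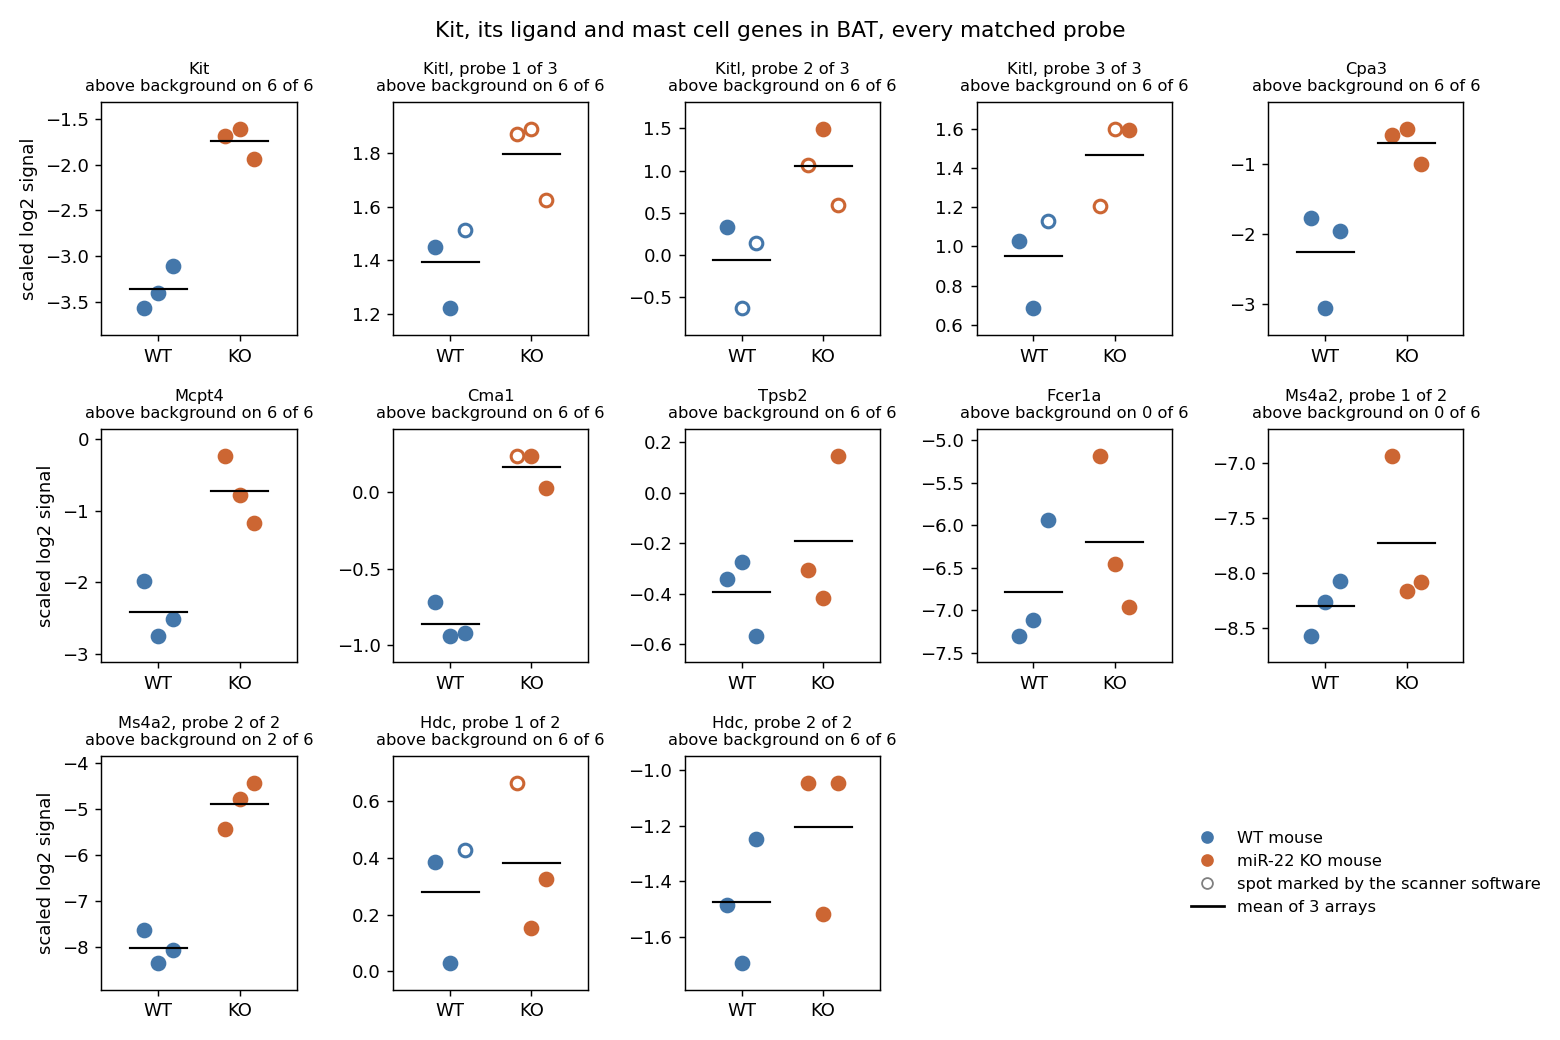
The scaled log2 signal (vertical axis) of every matched probe of the 9 measured genes, with 1 point per mouse for 3 WT (blue) and 3 KO (orange) mice, open points for marked spots and a line at the mean of 3 arrays. The KO mice lie above the WT mice for Kit, Mcpt4, Cpa3, Cma1 and all 3 probes of Kitl, while Tpsb2 and both probes of Hdc overlap.

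Of the 10 members, 6 were tested across all genes with limma, and 4 of these 6 (*Kit*, *Mcpt4*, *Cpa3* and *Cma1*) were higher in KO mice at an unadjusted p under 0.05 while none was lower. Over all 14711 genes tested, 10% were called higher and 8.82% lower at that threshold. The groups did not overlap for the same 4 members, where 13.8% of all genes had every KO value above every WT value and 17.2% had every KO value below. Because the members were chosen on this contrast, nothing is read from these shares. The members that passed the filter on dim probes are not all members, and the median difference of the 6 was 1.27 against -0.03 for all genes.

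The row of the slide was shared unequally by the groups, so the KO mice were also set against WT mouse 3, the one WT mouse in their row. Within that row the mean of the KO mice was above the WT value by 1.37 for *Kit*, 1.78 for *Mcpt4*, 1.26 for *Cpa3* and 1.05 for *Cma1*, and by 0.37 for *Tpsb2*. A limma fit with the slide row added as a block gives the same estimates, since that row holds every KO mouse. These values rest on WT mouse 3 alone, whose array had 17.1% of its spots marked. Its mean of skeletal muscle genes was -2.65, against 2.91 and 2.24 in WT mice 1 and 2.

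Whether other mast cell genes moved with *Kit* was asked of a list of 28 further genes known from mast cells. This list, like the other gene lists here, was written with earlier results of these data known. Its counts and p-values are therefore not independent support for the *Kit* result. All 28 had a probe, and 17 were tested. Of those 17, 3 rose in KO mice at an unadjusted p under 0.05 (*Cma2*, *Il1rl1* and *Alox5*), none fell and 14 did not pass, and no gene of the list passed after Benjamini-Hochberg adjustment, which 0.143% of all genes passed as higher and 0.0408% as lower. The share of 3 in 17 stands beside 10% of all genes, and the median difference of the list was 0.26 against -0.03 for all genes. The difference was positive for 13 of the 17 and for 47.1% of all genes.

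*Cma2*, a second chymase gene of the same family as *Cma1*, showed the clearest change of the list. Its scaled log2 signal was -2.28, -2.33 and -2.54 in WT and -0.67, -1.01 and -1.24 in KO mice. The groups were well apart, and the difference was 1.41 ± 0.18 (SE, n = 3 per group; limma, adjusted p = 0.0508). *Cma2* is a close relative of *Cma1*, and RNA of one on the probe of the other cannot be told apart here, so the 2 are uncertain as separate measurements. Its adjusted p ran from 0.011 to 0.278 over the alternatives.

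*Il1rl1* encodes ST2, an alarmin cytokine receptor, which mast cells share with type 2 innate lymphoid cells and regulatory T cells. It read -4.58, -4.85 and -5.17 in WT and -3.90, -3.63 and -4.17 in KO mice. All KO mice were above all WT mice, and the difference was 0.96 ± 0.21 (SE, n = 3 per group; limma, adjusted p = 0.0962, range over alternatives 0.0616 to 0.38).

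*Alox5* encodes the lipoxygenase that starts leukotriene synthesis in mast cells, neutrophils and macrophages. It read -3.48, -3.46 and -3.23 in WT and -2.87, -2.45 and -2.78 in KO mice, a difference of 0.69 ± 0.16 (SE, n = 3 per group; limma, adjusted p = 0.114, range over alternatives 0.0799 to 0.624). Its partner *Alox5ap* did not pass, at 0.41 ± 0.17 (SE; limma, adjusted p = 0.268), with the KO mice all above the WT mice.

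The genes for the factors that set mast cell identity did not pass the test. *Gata2* was at 0.52 ± 0.25 (SD, n = 3) in WT and 0.51 ± 0.18 (SD, n = 3) in KO mice, with a 95% interval of the difference of -0.44 to 0.42. *Mitf* differed by -0.20 ± 0.20 (SE), with an interval of -0.68 to 0.27. Both factors are made by other cells of fat as well.

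Several granule and signalling genes of mast cells that are shared with other cells did not pass either. These were *Srgn* (serglycin, the granule proteoglycan) at -0.22 ± 0.19, *Ndst2* (which sulfates its heparin) at 0.03 ± 0.14, *Slc18a2* (which loads monoamines into granules) at 0.15 ± 0.27, and *Fcer1g* (the gamma chain of the IgE receptor) at 0.28 ± 0.23, each a log2 difference with its SE. *Maob* and *Hpgds* stood at 0.57 ± 0.28 and 0.49 ± 0.40. The brightest probe of *Maob*, above background on 6 of 6 arrays but not in the fit, differed by 0.01 with marked spots kept.

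Not above background on any array were 8 of the 28, namely *Mrgprb1*, *Mrgprb2*, *Mrgprb8*, *Mcpt1*, *Mcpt2*, *Mcpt9*, *Rgs13* and *Cyp11a1*. *Mcpt1* and *Mcpt2* are proteases of mucosal mast cells, and *Mrgprb2* is a receptor of connective tissue mast cells. *Tpsg1*, a membrane tryptase, was above background on 2 KO arrays and no WT array. Its KO mean was 1.79-fold above the lowest signal called above background on the WT arrays. That is not a strict lower bound either, since the mean takes in a KO reading not above background.

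**Figure D2:**
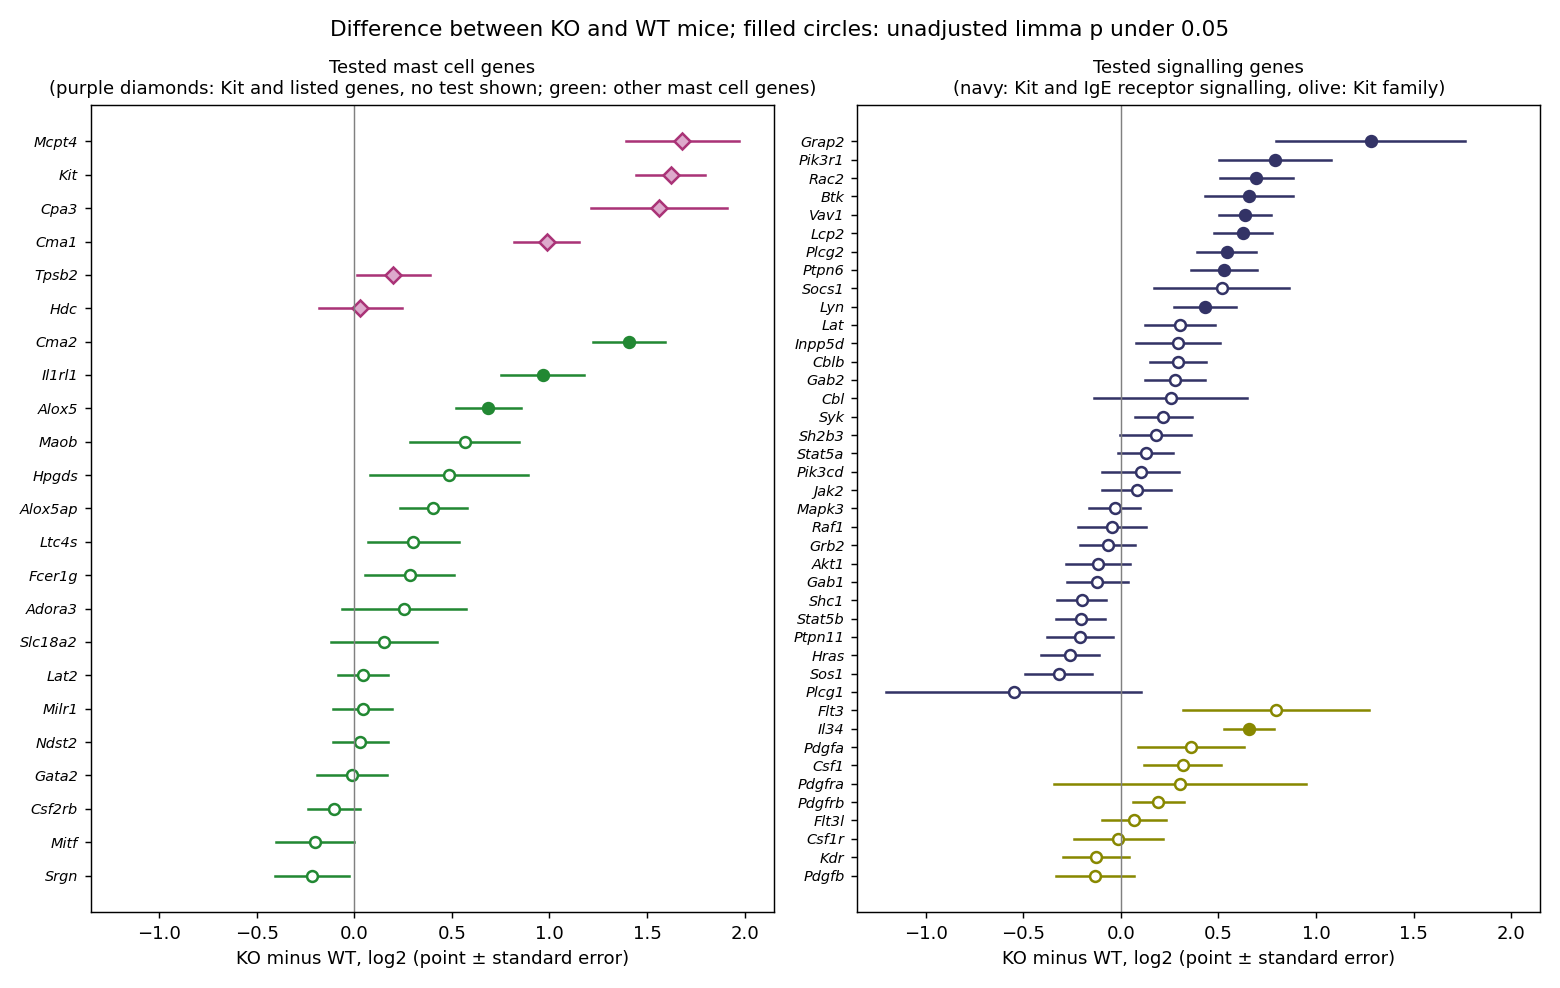
The log2 difference between KO and WT mice (horizontal axis, point with standard error) of every tested gene, with the listed members as purple diamonds (no test shown), other mast cell genes in green, signalling genes in navy and the Kit family in olive, and filled circles for an unadjusted limma p under 0.05. Mcpt4, Kit, Cpa3, Cma2, Grap2 and Cma1 stand at or above 0.99, while Tpsb2, Hdc, Gata2 and Ndst2 lie between -0.01 and 0.20.

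Downstream of KIT and of the IgE receptor, 31 of 35 listed signalling genes were tested. Of these, 9 rose at an unadjusted p under 0.05 (*Btk*, *Grap2*, *Lcp2*, *Lyn*, *Pik3r1*, *Plcg2*, *Ptpn6*, *Rac2* and *Vav1*), none fell and 22 did not pass, and no gene passed after adjustment. Of all genes 10% were higher and 8.82% lower. The median difference was 0.22. With the slide row added as a block 3 of the 30 that could be fitted were called (*Grap2*, *Lcp2* and *Vav1*), against 6.1% of all genes. Without WT mouse 1 or without KO mouse 2, 5 of 30 were called, against 8.4 and 9.29% of all genes.

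*Vav1*, a signalling protein of blood cells, read -2.70, -2.45 and -2.48 in WT and -1.94, -1.86 and -1.93 in KO mice. The KO mice lay close together above the WT mice, by 0.64 ± 0.13 (SE, n = 3 per group; limma, adjusted p = 0.0935, range over alternatives 0.0628 to 0.564). The adaptor *Lcp2* (SLP-76) differed by 0.63 ± 0.15, the GTPase *Rac2* by 0.69 ± 0.19 and the phospholipase *Plcg2* by 0.54 ± 0.15 (log2 difference and SE; limma adjusted p = 0.108, 0.137 and 0.144). The adaptor *Grap2* had the highest difference of the list, 1.28 ± 0.48 (adjusted p = 0.23), from a probe above background on 4 arrays. The kinase *Syk* and the adaptor *Lat* did not pass, at 0.22 ± 0.14 and 0.30 ± 0.18.

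These signalling genes are made by blood cells of many kinds, macrophages included. Of 7 macrophage markers, all above background on 6 of 6 arrays, 2 were higher, none was lower and 5 did not pass. The 2 were *Fcgr1*, by 1.04 ± 0.14 (limma, adjusted p = 0.0508), and *C1qb*, by 0.41 ± 0.14 (limma, adjusted p = 0.206). Beside these counts, 10% of all genes were called higher and 8.82% lower at the same unadjusted threshold. *C1qb* was at 0.22 with the slide row as a block and lost its unadjusted call there, by SAM, and without WT mouse 1, WT mouse 2, KO mouse 1 or KO mouse 3. The mean level of the 7 markers, with marked spots kept, was 0.36 to 0.60 in WT and 0.64 to 1.03 in KO mice. *Cd68* and *C1qa* overlapped between the groups. The part of macrophages in the signalling result was not tested.

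Among the receptors of the Kit family and their ligands, 1 of the 10 tested rose, which is the share of all genes (10%). *Il34*, a ligand of the macrophage receptor CSF1R, read -1.13, -0.93 and -0.93 in WT and -0.32, -0.37 and -0.33 in KO mice, a difference of 0.66 ± 0.13 (SE, n = 3 per group; limma, adjusted p = 0.0817, range over alternatives 0.0455 to 0.547). The receptor genes nearest to *Kit* in kind did not pass. *Csf1r* differed by -0.01 ± 0.23, *Pdgfrb* by 0.19 ± 0.13 and *Flt3*, above background on 3 arrays, by 0.79 ± 0.48 (log2 difference and SE), and the ligand *Csf1* by 0.32 ± 0.20 over 2 mice per group.

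*Pdgfra* and *Kdr* flank *Kit* on chromosome 5, and are given with the genes around them. *Pdgfra* (chr5:75151322-75198206), fitted on a dim probe above background on 4 arrays, differed by 0.30 ± 0.65, with a 95% interval of -1.23 to 1.83 that takes in the value of *Kit*. Its brightest probe was above background on 6 of 6 arrays but did not enter the fit. With marked spots kept, that probe read 0.49, 0.15 and 0.56 in WT and 0.34, 0.68 and 0.68 in KO mice, a difference of 0.17. *Kdr* (chr5:75932827-75979072) differed by -0.13 ± 0.17, and both genes overlapped between the groups. *Chic2*, upstream of *Pdgfra*, was at -0.34 ± 0.23 and *Clock*, beyond *Kdr*, at -0.11 ± 0.17. *Tmem165* did not pass at 0.33 ± 0.17, with every KO value that entered the fit above every such WT value. *Srd5a3*, also beyond *Kdr*, was higher by 0.36 ± 0.14 (limma, adjusted p = 0.234).

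The genes whose levels were most like those of *Kit* over the 6 arrays were *Tlr7* (Pearson's r = 0.997), *Gm5150* (0.993), *Trim59* (0.993), *Rtn4rl1* (0.992) and *Nek6* (0.992), out of 9568 genes above background and unmarked on all arrays. The 6 arrays form 2 separate groups, so a high r mostly restates a difference between KO and WT mice, and 423 genes exceeded an r of 0.9. Mast cell genes were not at the head of this order. *Alox5* stood at place 144 (0.952), *Cma2* at 170 (0.947), *Mcpt4* at 390 (0.905), *Cpa3* at 555 (0.88) and *Tpsb2* at 3392 (0.3).

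The other cells that carry KIT or share mast cell genes were read through their markers. Mean levels are over the markers above background on all arrays, by their brightest probe and with marked spots kept. Of 6 basophil markers, *Mcpt8*, *Prss34* and *Il4* were not above background on any array, and the receptor chain *Il3ra* was the 1 that was tested, at 0.13 ± 0.15. Of the melanocyte markers 5 were tested and none passed, with a mean level of -2.99 to -2.75 in WT and -3.12 to -2.90 in KO mice. Of the progenitor markers 4 were tested and none passed, and the mean level was 1.39 to 1.48 in WT and 1.30 to 1.5 in KO mice. The same held for the 4 tested markers of type 2 innate lymphoid cells, at -1.17 to -0.68 and -1.10 to -0.92. *Krt5*, *Krt14* and *Krt1* of skin epithelium were not above background on any array, and none of the 3 tested skin markers passed. The part of any of these cells in the *Kit* result was not tested.

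The mean of 6 adipocyte genes was 2.90 to 3.22 in WT and 2.69 to 3.14 in KO mice, with none of 4 tested passing. That of 8 brown adipocyte genes was 3.40 to 3.68 and 2.86 to 3.48, with *Cox7a1* lower of 3 tested. That of 6 endothelial genes was 1.16 to 1.64 and 1.37 to 1.53, with none of 5 tested passing. For 6 fibroblast genes it was 2.68 to 2.70 and 2.44 to 2.72, with *Col1a1* lower of 4 tested. Of the lymphocyte markers, *Cd4* was higher by 0.58 ± 0.14 and the other 3 tested did not pass. *Retnlg* was higher among 5 neutrophil markers tested, and *Mbp* was lower by 0.66 on the log2 scale among 6 nerve markers. All these calls used the unadjusted threshold, at which 10% of all genes were higher and 8.82% lower, and nothing is read from single calls. The skeletal muscle genes varied widely within the groups, from -2.65 in WT mouse 3 to 2.91 in WT mouse 1, and none of 6 tested passed. The mean of the 7 members above background on 6 of 6 arrays, marked spots included as in the other list means, was -1.31 to -0.94 in WT and -0.28 to -0.01 in KO mice, a description of genes chosen on this contrast.

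**Figure D3:**
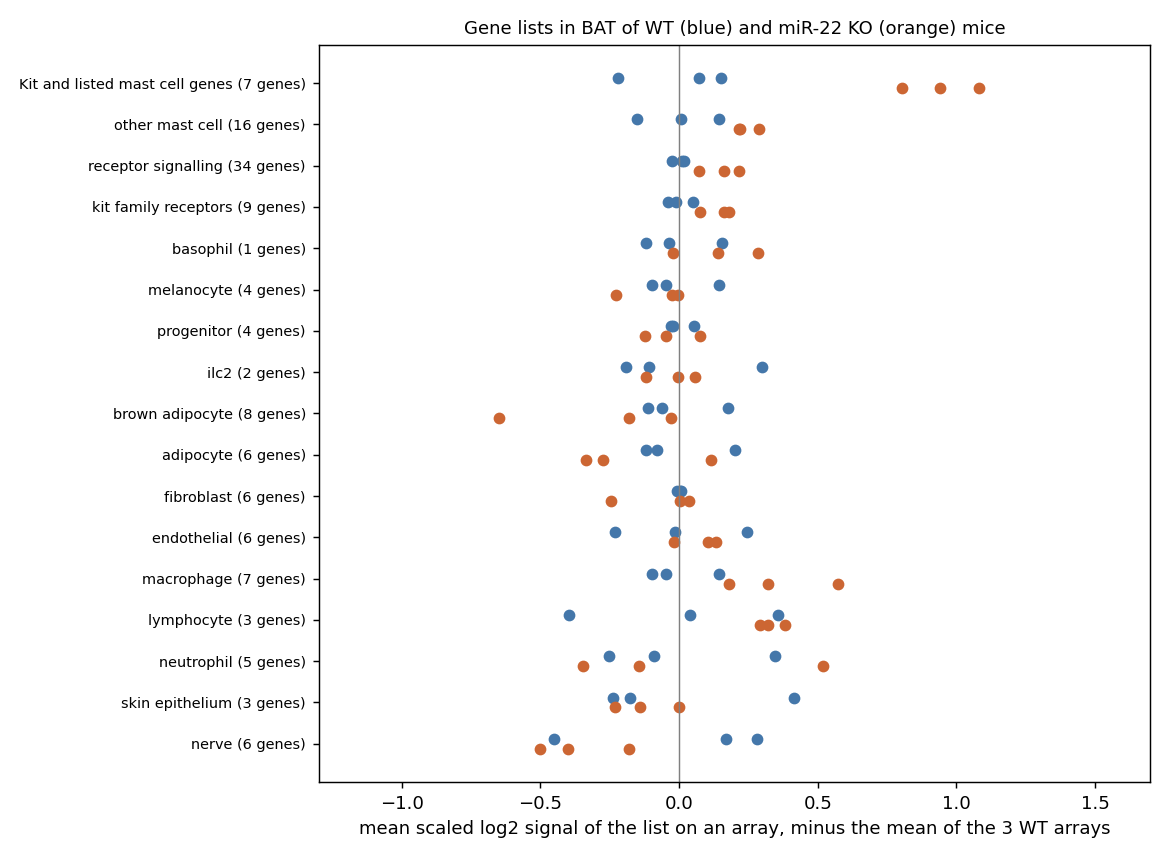
The mean scaled log2 signal of each gene list on an array, minus the mean of the 3 WT arrays (horizontal axis), with 1 point per mouse for WT (blue) and KO (orange) and the number of genes above background on all arrays in brackets. The members are higher in KO mice without overlap, which is a description, since they were chosen with the *Kit* result of this contrast known. The macrophage, other mast cell, receptor signalling and Kit family lists are also higher in KO mice without overlap. Marked spots are kept in these means. Skeletal muscle genes are not drawn because WT mouse 3 lies far below the other mice.

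Across 19 other ways of processing the arrays, *Kit* was higher in KO mice by 1.32 to 1.75, *Mcpt4* by 1.44 to 1.90 and *Cpa3* by 1.16 to 1.81 on the log2 scale. *Cma1* could be fitted in 15 of them and was higher by 0.95 to 1.06. *Tpsb2* lay between 0.03 and 0.37 and *Hdc* between 0.02 and 0.43. *Cma2* and *Il1rl1* kept an unadjusted p under 0.05 in all 19, at 1.23 to 1.56 and 0.47 to 1.27, while *Alox5* lost it under normexp background correction and with the slide row as a block. *Ms4a2* entered the fit and was higher when the filter on dim probes was dropped and in the processed values of the authors, and *Kitl* when marked spots were kept.

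**Figure D4:**
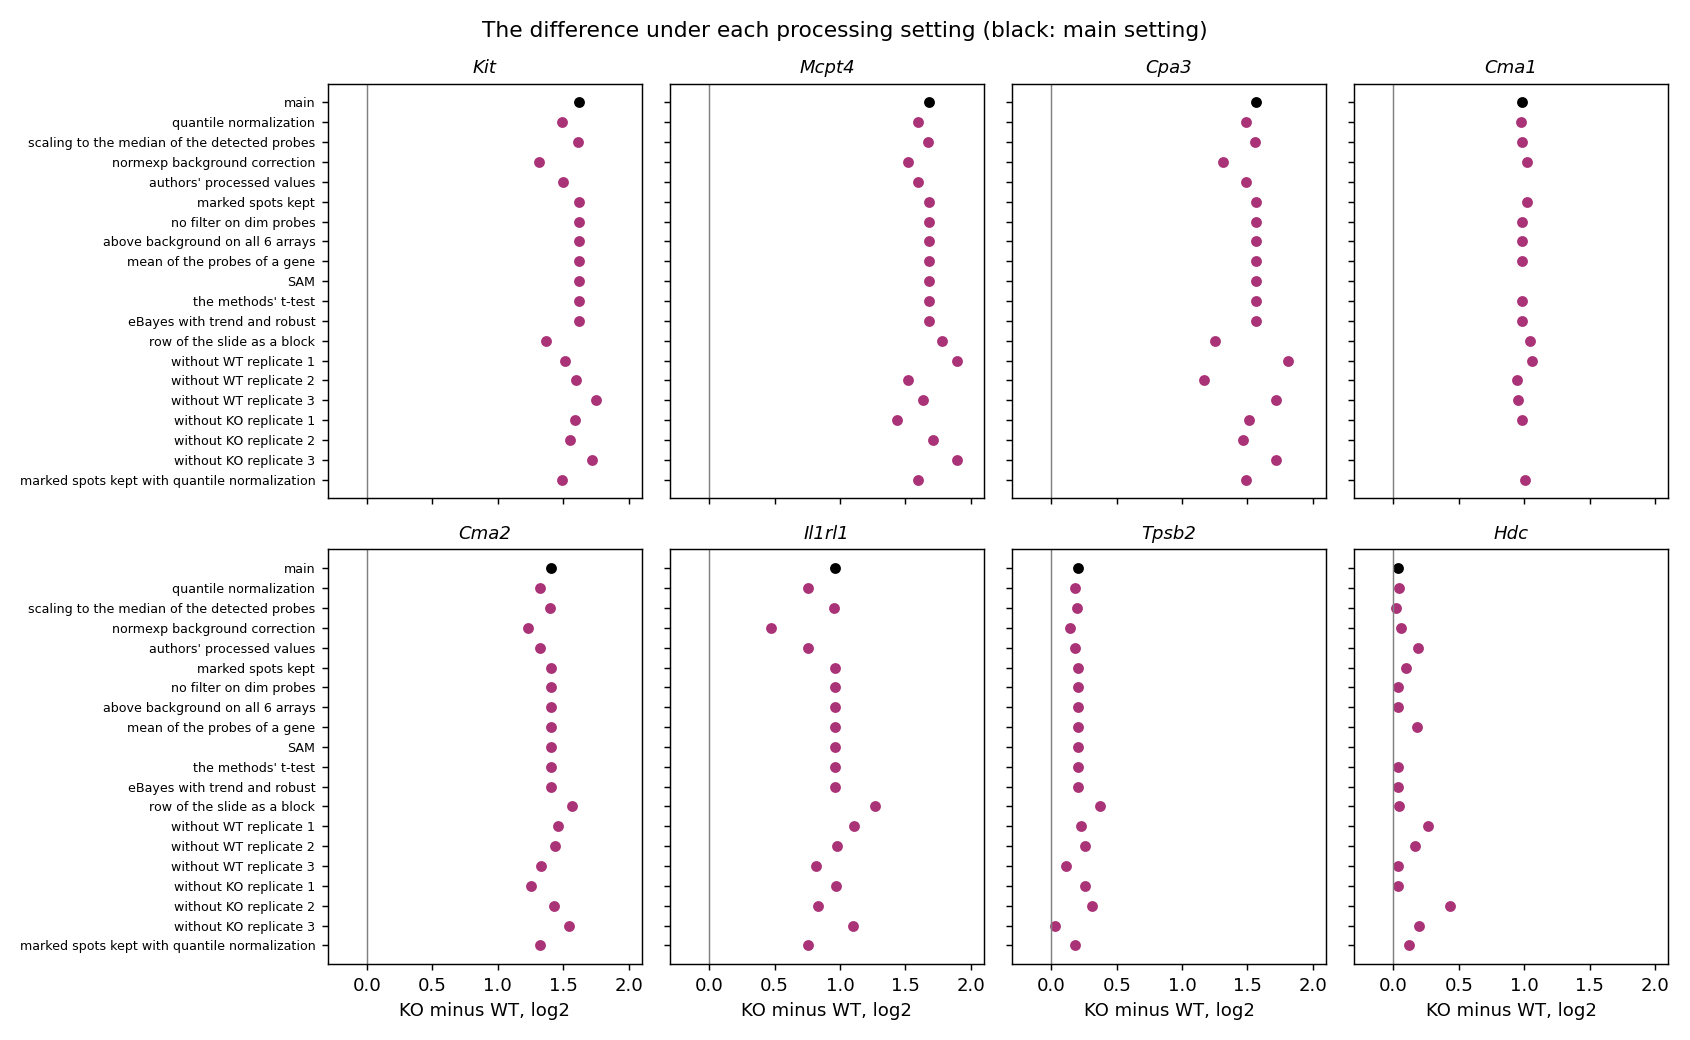
The log2 difference between KO and WT mice (horizontal axis) of 8 genes under the main setting (black) and each alternative (purple). Kit, Mcpt4, Cpa3, Cma1, Cma2 and Il1rl1 stay above 0.4 wherever they could be fitted, and Tpsb2 and Hdc stay below 0.5.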

How the data were processed

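BAT RNA of 3 WT mice and 3 mice without miR-22 was labelled with Cy3 and hybridized to Agilent mouse arrays, 1 mouse per array. The authors deposited scanner intensity values that are background-subtracted and spatially detrended by Agilent Feature Extraction (version 10.7 in the submitters' processing notes, 11.5.1.1 per the file headers), and a further file of log2 values of 27497 probes, whose processing is not given in the sources used here. From the intensities, log2 of the signal over the 75th percentile of non-control spots was taken, without marked spots. The mean levels of gene lists kept marked spots and used the brightest probe of each gene. A probe needed to be above background on at least 3 arrays with at least 2 unmarked values per group. Probes were named through RefSeq accessions (33767 of 56605 matched, GRCm38.p6), and the brightest testable probe stood for a gene. The groups were compared by limma 3.58.1 (lmFit, eBayes; R 4.3.3, data.table package 1.17.8), two-sided, at 0.05 unadjusted, the threshold of the study's methods, and after Benjamini-Hochberg adjustment over all genes. The steps were tested on simulated data.

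The members and gene lists were chosen with earlier results of these data known. Named are all members, the genes of each other tested list past the adjusted threshold or else the 4 with the smallest unadjusted p, the 5 genes most correlated with *Kit*, and markers. Other genes are named as examples of their list after their values were seen. Alternatives were quantile normalization, median scaling, normexp (offset 50), the authors' processed values, marked spots kept, no filter, a filter of 6 arrays, the mean of probes, eBayes with trend and robust, SAM, the methods' t-test, the slide row as a block, and leaving out each array. Keeping marked spots with quantile normalization was added after seeing the data. The number of arrays limits the precision.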

Additional observations from a re-analysis of the deposited data

How the results depend on the processing

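No paired analysis was possible because the mice of the groups share no numbers. Over 19 alternatives 3 to 5 of the 4 to 8 members tested were called higher (3 to 4 with 1 mouse left out), beside 6.06 to 11.2% of all genes. Because the members were chosen on this contrast, nothing is read from these counts. *Kit*, *Mcpt4* and *Cpa3* were called in each of the 19 alternatives. *Cma1* was in 15 of them, since it was missing from the authors' processed values and where too few unmarked spots remained. Without the filter on dim probes 5 of 28 other mast cell genes tested were higher, against 7.85% of all genes, with the dim *Rgs13* and *Tpsg1* added. With 1 mouse left out, 3 to 6 of the 16 or 17 tested were higher, against 8.34 to 9.76% of all genes. The signalling genes called higher fell to 3 of 30 with the slide row as a block, against 6.1% of all genes. With 1 mouse left out they were 5 to 8 of the 30 or 31 tested, against 8.34 to 9.76% of all genes. Of the signalling genes, 2 of 35 were lower with marked spots kept and 3 of 31 by the methods' t-test, against 11.1 and 9.35% of all genes. With marked spots kept and quantile normalization 1 of 35 was lower, against 10.6%. Of 10 Kit family genes, 2 were higher under quantile normalization, in the authors' processed values and with marked spots kept, against 7.95, 8.56 and 9.47% of all genes. With marked spots kept and quantile normalization 3 of 10 were higher, against 8.01%. With 1 mouse left out, 1 to 2 of the 9 or 10 tested were higher, against 8.34 to 9.76%. *Flt3* turned to -0.16 with the row as a block. The causes were not tested. Leaving out the filter moved the median of all genes by 0.164. Of all calls, 53.2% were higher in KO mice, against 42% in the authors' processed values, 43.8% after quantile normalization, 40.3% after normexp and 72% with the row as a block, with 27 genes past the adjusted threshold in the main setting and from 0 to 283 in the others. Dim probes (*Fcer1a*, *Ms4a2*) and marked spots (*Kitl*) limit what these arrays show of those members.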
